A study of Mus musculus with 6 samples.

Results

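The cholesterol genes examined here are those of cholesterol synthesis, its control by sterols, the movement and storage of cholesterol in the cell, and cholesterol efflux. A list of 30 genes was taken, and a gene was measured where the platform annotation named it alone on a probe set, with the probe set of highest mean signal standing for the gene. This gave 27 of the 30 genes, out of 18193 genes in all. Acat2, Nr1h2 and Soat1 were not analysed here. The measured genes were 18 synthesis enzymes, 4 genes of sterol sensing, 2 of cholesterol transport and 3 efflux genes of the kind that liver X receptors (LXRs) switch on. RNA came from 3 related mouse lines labelled as hepatocellular carcinoma, with 2 Affymetrix arrays per line. M1 and I1 are subclone lines, each a subpopulation of BL185 that was selected for migration, and BL185 is their parent. All 3 lines were grown in DMEM with fetal bovine serum. No subclone of BL185 without selection was measured, and each selected line is a single line, so a difference from BL185 belongs to that line and not to migration in general.

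Cells make cholesterol from acetyl-CoA through mevalonate, the isoprenoid diphosphates, squalene and lanosterol. When membranes of the endoplasmic reticulum run low in sterol, SCAP escorts the transcription factor SREBP2 to the Golgi, where it is cut and released to switch on the synthesis enzymes, whereas INSIG proteins hold the complex back when sterol is plentiful. Surplus cholesterol yields oxysterols that activate LXRs, which raise the exporters ABCA1 and ABCG1 and the ubiquitin ligase MYLIP. The liver is a main site of cholesterol synthesis in the animal.

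SREBP2 works at promoters together with NF-Y, a factor that binds the letters CCAAT, so the upstream sequence was read for the genes with a RefSeq promoter entry (assembly GRCm38.p6), which were 21 of the 27 measured genes. Hmgcs1 is shown because the letters TCACNCCAC, a form of the sterol regulatory element, were found in its window, Dhcr7 because its signal in I1 exceeded that in BL185 by more than for the other members, Insig1 because it is a known SREBP target that did not share this shift, and Abca1 because it stands for the efflux arm. Each run holds the 250 bases before the annotated start site, 5′ to 3′ on the gene's strand, and capitals mark CCAAT or TCACNCCAC on either strand (CCAAT on the opposite strand reads ATTGG here). Hmgcs1 lies at chr13:119690101-119690350 (plus strand), Dhcr7 at chr7:143829964-143830213 (plus strand, 1 of 3 annotated windows), Insig1 at chr5:28071162-28071411 (plus strand) and Abca1 at chr4:53159896-53160145 (minus strand).
Hmgcs1: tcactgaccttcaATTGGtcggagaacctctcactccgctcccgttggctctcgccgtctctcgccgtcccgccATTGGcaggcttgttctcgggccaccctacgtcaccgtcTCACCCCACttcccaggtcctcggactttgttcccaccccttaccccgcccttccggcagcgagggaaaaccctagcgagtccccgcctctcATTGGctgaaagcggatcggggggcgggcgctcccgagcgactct
Dhcr7: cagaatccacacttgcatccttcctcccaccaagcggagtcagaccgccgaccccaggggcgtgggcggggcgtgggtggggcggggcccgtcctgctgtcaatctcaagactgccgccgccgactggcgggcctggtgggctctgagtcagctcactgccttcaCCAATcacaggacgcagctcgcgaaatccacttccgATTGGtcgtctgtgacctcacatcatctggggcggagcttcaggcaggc
Insig1: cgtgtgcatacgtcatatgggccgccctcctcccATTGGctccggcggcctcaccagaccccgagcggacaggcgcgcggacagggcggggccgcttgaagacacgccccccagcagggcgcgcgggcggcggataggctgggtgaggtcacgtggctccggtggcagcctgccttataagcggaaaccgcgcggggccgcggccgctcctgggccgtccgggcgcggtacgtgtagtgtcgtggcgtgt
Abca1: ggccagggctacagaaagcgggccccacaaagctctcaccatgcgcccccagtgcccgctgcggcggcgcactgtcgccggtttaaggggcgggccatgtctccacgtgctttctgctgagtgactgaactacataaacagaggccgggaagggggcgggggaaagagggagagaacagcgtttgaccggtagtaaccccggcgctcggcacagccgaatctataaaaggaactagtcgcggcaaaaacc

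The Hmgcs1 run held the sterol element and 3 NF-Y boxes, the Dhcr7 run 2 NF-Y boxes, the Insig1 run 1 and the Abca1 run none. For Dhcr7 the window with the most matches is shown, and its other annotated windows held none. The window shown lies inside the annotated gene, which begins at position 143823167. Over windows of 300 bases, 250 before and 50 after the start, CCAAT on either strand was present for 19 of the 21 members (90.5%), all but Abca1 and Scap, against 41.1% of 27025 genes in the table. Counted by window, it was in 19 of 27 member windows (70.4%) and in 37.4% of 32851 windows. TCACNCCAC was present for 1 of the 21 members (4.76%) and for 1.44% of all genes. A direct repeat of AGGTCA with 4 bases between, the exact form of a common LXR site, was found for 0 members and in 0.0152% of all windows. So rare an exact match cannot tell whether a member, Abca1 included, holds an LXR site with other letters, which was not searched. In Hmgcs1 the sterol element, which begins at position −137 from the start, and the NF-Y boxes did not overlap. These matches describe the windows only.

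Replicates resembled each other less in M1 than in the other lines. Their correlation over all probe sets was 0.911 for M1, 0.994 for I1 and 0.997 for BL185, and the between-replicate SD over genes was 0.65, 0.16 and 0.10 log2 units. Signals were most compressed on M1 replicate 1, where their SD was 1.62, compared with 1.83 to 1.97 on the other 5 arrays. Its 3′ control for 18S ribosomal RNA read 12.50, against 10.68 on M1 replicate 2, 11.27 and 11.51 in I1, and 10.11 and 10.14 in BL185. The 3′ minus 5′ signal of Actb was 1.43 and 1.24 in M1, 1.47 and 1.43 in I1, and 1.08 and 0.88 in BL185. Both measures were higher on every array of the selected lines than in BL185, while M1 and I1 overlapped. Their part in the results was not tested. Of 9 measured hepatocyte markers, 4 averaged more than 1 log2 unit above the array median in each line. The set was not the same, with Ttr in M1 and I1 (9.44 and 9.42, against 8.82 in BL185) and Fgb in BL185. Of the markers, Hnf4a, Krt8 and Krt18 read 11.94 or higher on every array. Alb, the gene of albumin, lay between 7.53 and 8.43, near the array medians of 7.87 to 8.11. Afp, Apoa1 and Gpc3 averaged 7.27 to 8.52, so the label was met in part. Fgb averaged 7.70 in M1, 7.55 in I1 and 9.48 in BL185. Of 4 bile duct markers 3 were bright in each line, Krt19 (14.59 to 15.08), Epcam and Sox9, and Sox9 averaged 9.39 in M1, 10.11 in I1 and 11.45 in BL185. The part of these markers in the results was not tested. Signal near those medians cannot be told from background.

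**Figure D1:**
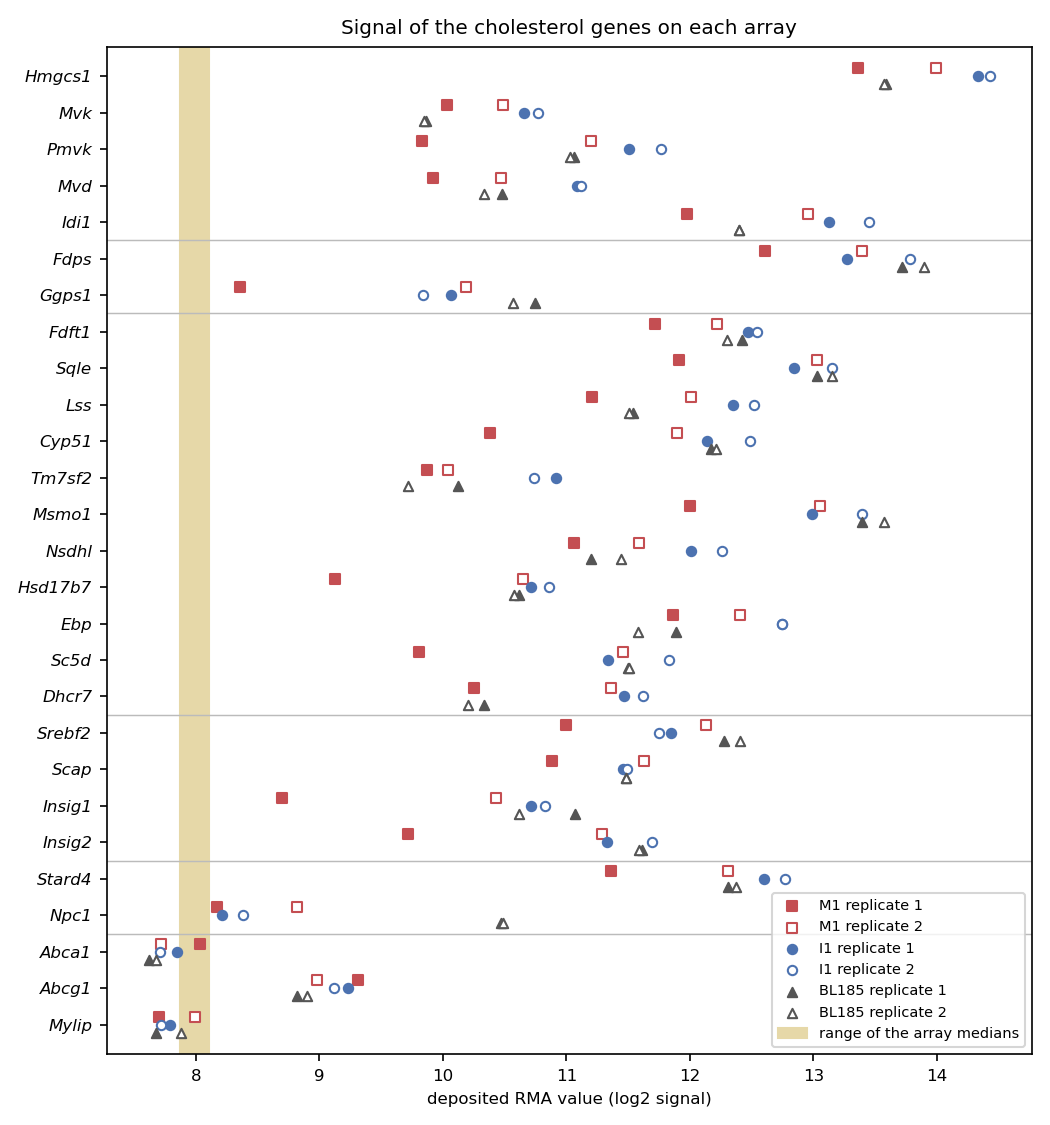
Deposited log2 signal (x axis) of the 27 measured cholesterol genes (y axis), with 1 point per array. Red squares are M1, blue circles I1 and grey triangles BL185, filled for replicate 1 and open for replicate 2, and the shaded band spans the array medians of 7.87 to 8.11. The M1 replicates lie far apart for most genes, and Npc1 lies between 8.17 and 8.82 in the selected lines against 10.47 and 10.49 in BL185.

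In I1 all 5 early mevalonate enzymes stood above the parent on both arrays by the probe sets used, as did 42.6% of all genes. Hmgcs1, which forms HMG-CoA, read 14.33 and 14.43 in I1 and 13.59 and 13.57 in BL185. Mvk, the first of the mevalonate kinases, read 10.66 and 10.77 in I1 and 9.86 and 9.85 in BL185. Idi1, which isomerises isopentenyl diphosphate, read 13.13 and 13.45 in I1, against 12.40 on each BL185 array. For these 3 genes the lines did not overlap on the probe sets used, and the gap between them exceeded the distance between the replicates of either line. Another Hmgcs1 probe set did overlap, at 11.88 and 12.33 in I1 and 11.79 and 12.05 in BL185. The differences in mean log2 signal were 0.80 ± 0.25 for Hmgcs1, 0.86 ± 0.21 for Mvk and 0.89 ± 0.35 for Idi1 (SE of the fit over all 6 arrays), which are 1.75-fold, 1.82-fold and 1.85-fold. Pmvk, the next kinase, differed by 0.59 ± 0.46 and Mvd, the decarboxylase that yields isopentenyl diphosphate, by 0.70 ± 0.24. No difference in this group passed limma's test at an adjusted p of 0.05, with adjusted p-values from 0.206 (Mvk) to 0.685 (Pmvk).

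The isoprenoid branch point did not share this direction. Ggps1, which makes the geranylgeranyl diphosphate used to prenylate proteins, read 10.07 and 9.84 in I1 and 10.75 and 10.57 in BL185, a difference of −0.70 ± 0.59 (adjusted p = 0.702 by limma). Both I1 arrays lay below both parent arrays. Fdps, which makes farnesyl diphosphate for cholesterol and for prenylation alike, read 13.27 and 13.78 in I1 and 13.72 and 13.90 in BL185, so the lines overlapped.

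Among the 11 enzymes of the squalene and sterol steps, 7 had both I1 arrays above both BL185 arrays, 0 had both below and 4 overlapped, where 42.6% of all genes had both above and 33.5% both below. Dhcr7, which reduces the last double bond to give cholesterol, read 11.47 and 11.62 in I1 and 10.33 and 10.20 in BL185, a difference of 1.28 ± 0.38 or 2.43-fold (adjusted p = 0.281 by limma). Ebp, the sterol isomerase, read 12.75 on each I1 array against 11.89 and 11.58 in BL185, a difference of 1.01 ± 0.25. These were the largest differences above BL185 among the members. Lss, which closes squalene epoxide into lanosterol (0.92 ± 0.30), the sterol reductase Tm7sf2 (0.91 ± 0.22) and Nsdhl, a dehydrogenase of sterol demethylation (0.81 ± 0.25), were also higher and separate. On the probe sets used, the other enzymes were close to the parent: Fdft1, the squalene synthase (0.15 ± 0.23), Sqle, the squalene epoxidase (−0.09 ± 0.39), Cyp51, the lanosterol demethylase (0.13 ± 0.51), Msmo1, the sterol methyl oxidase (−0.29 ± 0.39), Hsd17b7, a keto reductase (0.19 ± 0.50), and Sc5d, the sterol desaturase (0.08 ± 0.55). Further probe sets lay farther from the parent, higher for Fdft1 and lower for Hsd17b7 and Sc5d, as given below.

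**Figure D2:**
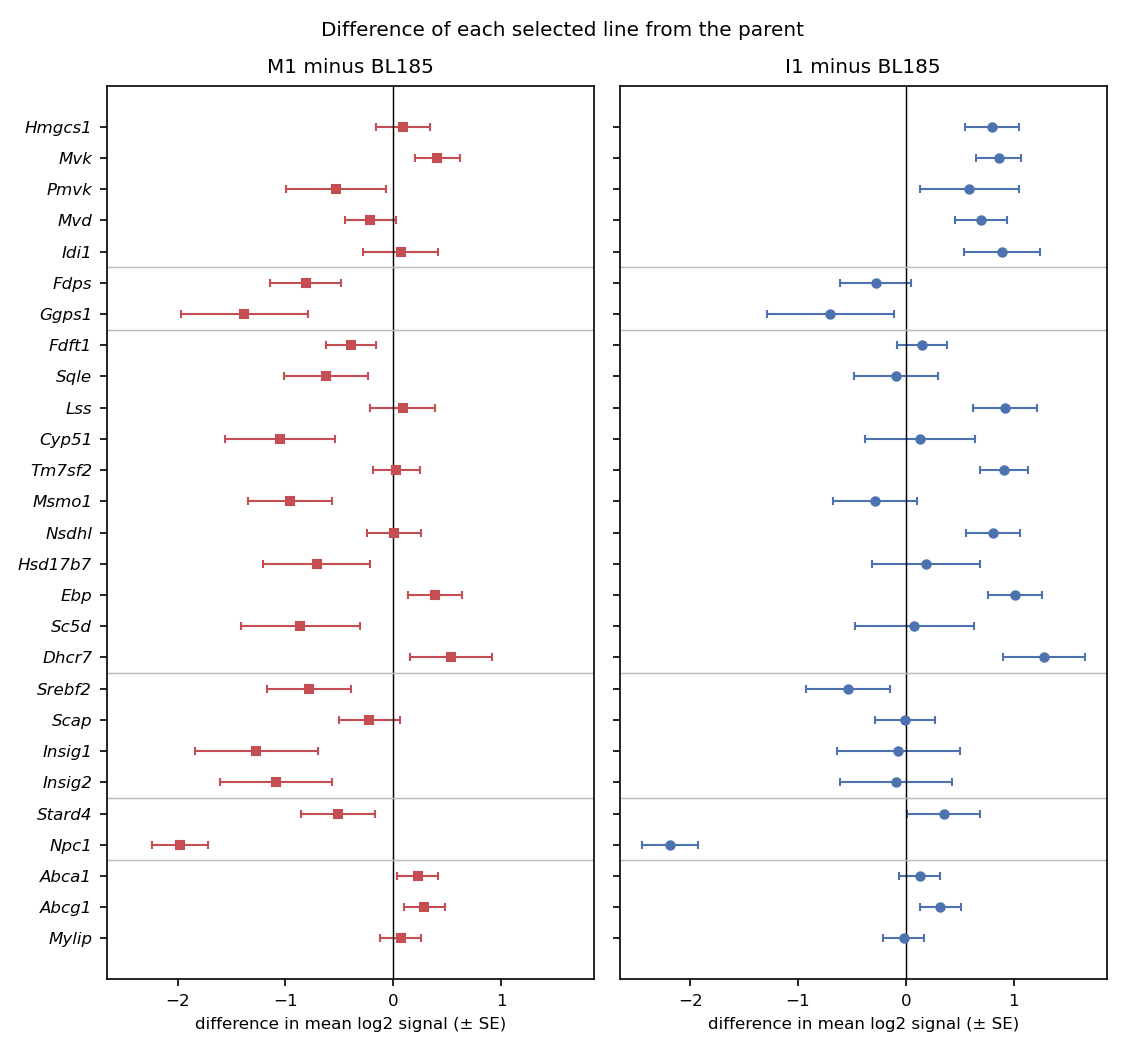
Difference in mean log2 signal from BL185 (x axis) for each measured gene (y axis), M1 in the left panel and I1 in the right, with bars of ± 1 SE from the limma fit over all 6 arrays. In I1 the 5 early mevalonate enzymes lie above 0 and Dhcr7 reaches 1.28, whereas Npc1 lies at −1.98 in M1 and −2.19 in I1.

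Over the 18 synthesis enzymes, the median difference in I1 was 0.65, against 0.06 over all 18193 genes and −0.19 over the 6005 genes whose mean signal lay in the same range (9.96 to 13.88). Both I1 arrays stood above both parent arrays for 12 of 18 enzymes (66.7%), against 42.6% of all genes and 27.7% of the genes in that range, and both stood below for 1, against 33.5% of all genes. By limma with Benjamini-Hochberg adjustment over all genes, 0 of 27 members were called in I1 minus BL185, where 0.511% of all genes were called, and 8 members higher and 1 lower had an unadjusted p under 0.05, as had 4.18% (higher) and 7.47% (lower) of all genes. The spread in this test is pooled over the 3 lines and is set largely by M1. A fit of the 4 I1 and BL185 arrays called 15 of 27 members. Of these 12 were higher, among them 10 synthesis enzymes, and 3 were lower, Ggps1, Srebf2 and Npc1. That fit called 22.5% of all genes higher and 24.1% lower, and 18.6% of the genes in the range of the enzymes higher. The median over the enzymes stayed above 0 under each scaling, at 0.59 after median centring, 0.83 after cyclic loess and 0.88 after quantile normalization.

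In M1 the same enzymes showed no common shift, and the 2 arrays disagreed. M1 replicate 1 read lower than M1 replicate 2 for all 18 enzymes, by 0.17 to 1.83 log2 units, as it did for 93.8% of the genes in their signal range. Hmgcs1 read 13.36 and 13.99 in M1 against 13.59 and 13.57 in BL185, with the parent arrays between the M1 arrays. Dhcr7 read 10.25 and 11.36 in M1 against 10.33 and 10.20 in BL185, a difference of 0.54 ± 0.38 with overlap. Mvk was the enzyme with both M1 arrays above both parent arrays (10.03 and 10.49 in M1, 9.86 and 9.85 in BL185; difference 0.41 ± 0.21).

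On the lower side, 7 of the 18 enzymes had both M1 arrays below both BL185 arrays. Over all genes, 26.2% had both M1 arrays above and 25.7% both below, and in the signal range of the enzymes 44.9% lay below. The largest differences were those of Ggps1 (8.36 and 10.19 in M1, 10.75 and 10.57 in BL185; −1.38 ± 0.59) and Cyp51 (10.38 and 11.90 in M1, 12.17 and 12.21 in BL185; −1.05 ± 0.51). In each of these, M1 replicate 1 lay far below M1 replicate 2. The median over the enzymes was −0.30 in M1, against 0.07 over all genes and −0.45 over genes in the same signal range. It was 0.11 after cyclic loess, 0.11 after quantile normalization and −0.43 after median centring, so its direction depended on the scaling.

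By limma, 0 of 27 members were called in M1 minus BL185, where 0.879% of all genes were called, and 1 member, Npc1, was lower at an unadjusted p under 0.05, as were 11.5% of all genes. Without M1 replicate 1, where the lone M1 array is assumed to vary like the other lines, 8 members were called. Hmgcs1, Mvk, Idi1, Lss (by the probe set used, with another in the opposite direction), Ebp and Dhcr7 were higher, in a fit that called 11.7% of all genes higher. Ggps1 and Npc1 were lower, in a fit that called 12.3% lower. The median over the enzymes was then 0.09, against 0.00 over the genes in their range, and Dhcr7 differed by 1.10 ± 0.14. Without M1 replicate 2 instead, 19 members were called. Of these 17 were lower and 2, Abca1 and Abcg1, higher, in a fit that called 38.4% of all genes lower and 32.4% higher.

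**Figure D3:**
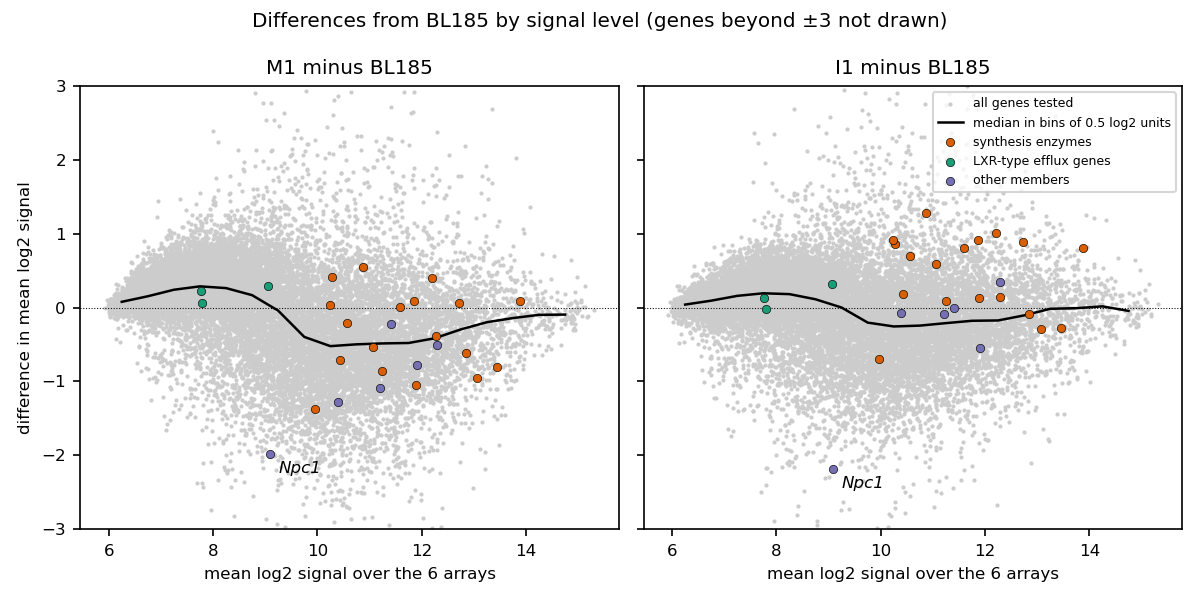
Difference in mean log2 signal from BL185 (y axis) against mean log2 signal over the 6 arrays (x axis), M1 in the left panel and I1 in the right. Grey points are all genes tested, the black line is their median in bins of signal, orange points are synthesis enzymes, green points LXR-type efflux genes and violet points the other members. Over the range of the enzymes the median of all genes lies below 0, at −0.45 in M1 and −0.19 in I1, and most enzymes lie above that line in I1.

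Set against each other, I1 was higher than M1 in mean signal for all 18 synthesis enzymes. The same held for 4728 of the 6005 genes in their signal range and for 9030 of all 18193 genes. The median difference was 0.77 over the enzymes (I1 minus M1), against 0.23 over the genes in that range. Both I1 arrays lay above both M1 arrays for 13 of them, against 8.13% of all genes and 12.8% of genes in their range. Both lay below for 0, against 7.96% of all genes. The largest were Cyp51 (12.14 and 12.49 in I1, 10.38 and 11.90 in M1; 1.17 ± 0.51) and Pmvk (11.51 and 11.77 in I1, 9.83 and 11.20 in M1; 1.12 ± 0.46). These values rest largely on M1 replicate 1. Without it the median was 0.31, against −0.21 for genes in the range, and 16 of 18 enzymes were higher in I1.

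By limma, 0 of 27 members and 0% of all genes were called in I1 minus M1, and 6 members, all higher in I1, had an unadjusted p under 0.05, as had 1.83% of all genes. Without M1 replicate 1, Mvd (0.63 ± 0.14), Lss (0.42 ± 0.14), Tm7sf2 (0.79 ± 0.17) and Nsdhl (0.54 ± 0.16) were called higher in I1 and Npc1 lower, where 7.20% of all genes were called higher and 13.4% lower. Without M1 replicate 2, 23 members were called, all higher in I1, as were 36.1% of all genes.

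The genes that sense sterol and control SREBP2 stood at or below the parent's mean in I1 on the deposited scale, unlike 14 of the 18 enzymes, though 3 of the 4 changed sign under cyclic loess and quantile normalization. Srebf2, which encodes SREBP2, read 11.00 and 12.13 in M1, 11.85 and 11.75 in I1, and 12.28 and 12.41 in BL185. Both arrays of each selected line lay below the parent arrays, as for 25.7% of all genes in M1 and 33.5% in I1. In the signal range of the enzymes these shares were 44.9% and 53.5%. The differences were −0.78 ± 0.39 in M1 and −0.54 ± 0.39 in I1. On the other Srebf2 probe set both selected lines overlapped the parent, with differences of −0.37 in M1 and −0.05 in I1. Insig1, the SREBP target that retains SCAP in the endoplasmic reticulum, read 8.70 and 10.43 in M1, 10.71 and 10.83 in I1, and 11.07 and 10.62 in BL185. Its I1 and parent arrays overlapped (−0.07 ± 0.57), and both M1 arrays lay below the parent (−1.27 ± 0.57). Insig2, a retention protein of the same kind that is under other control in liver, read 9.72 and 11.29 in M1, 11.33 and 11.69 in I1, and 11.61 and 11.59 in BL185. Scap, the escort itself, differed by −0.22 ± 0.28 in M1 and −0.01 ± 0.28 in I1, within the spread of the M1 replicates.

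None of these 4 genes passed limma's test, with adjusted p-values from 0.374 to 0.633 in M1 and from 0.670 to 0.992 in I1. Their median was −0.94 in M1 and −0.08 in I1, against −0.45 and −0.19 over the genes in the signal range of the enzymes. In I1 the median over the 4 genes was 0.13 after cyclic loess and 0.17 after quantile normalization. There Insig1, Insig2 and Scap were above 0, and Srebf2 was below 0 under each scaling. In M1 the median remained below 0 under each scaling (−1.06 to −0.51), and was −0.26 without M1 replicate 1.

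**Figure D4:**
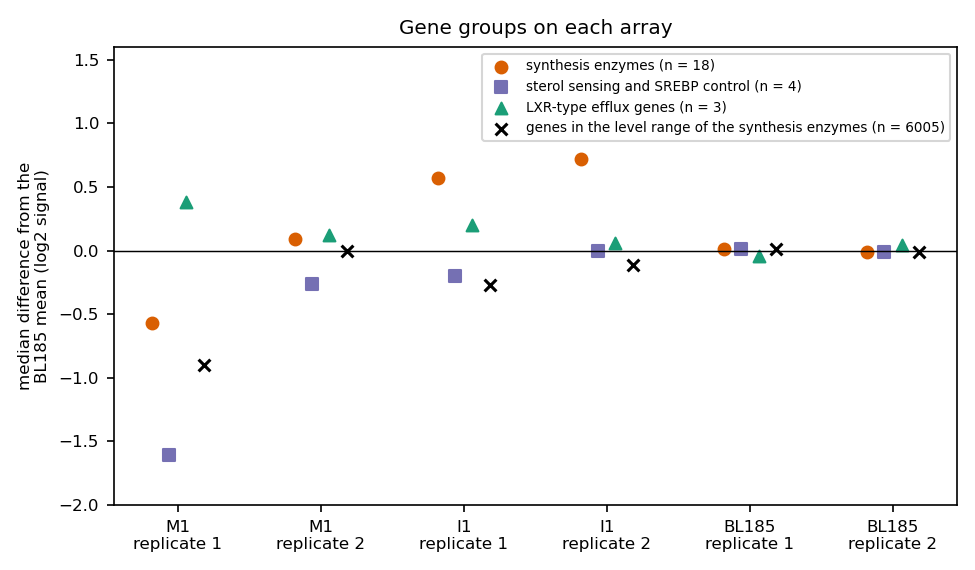
Median over each gene group of the difference from the BL185 mean (y axis, log2 signal) on each of the 6 arrays (x axis). Orange circles are the 18 synthesis enzymes, violet squares the 4 genes of sterol sensing, green triangles the 3 LXR-type efflux genes and crosses the 6005 genes in the signal range of the enzymes. The enzymes lie at 0.57 and 0.72 in I1 and at −0.57 and 0.09 in M1, while the efflux genes lie between −0.04 and 0.38 on all arrays.

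Npc1 differed from the parent by more than any other member in both selected lines. The gene encodes the lysosomal membrane protein that passes cholesterol from endocytosed lipoproteins to the rest of the cell. It read 8.17 and 8.82 in M1, 8.21 and 8.38 in I1, and 10.47 and 10.49 in BL185, so both selected lines were clearly separate from the parent and overlapped with each other. The difference was −1.98 ± 0.26 in M1, 3.95-fold lower, and −2.19 ± 0.26 in I1, 4.55-fold lower. By limma the adjusted p was 0.0508 in M1 and 0.0541 in I1, just outside the threshold of 0.05. Over the alternatives it ranged from 9.9e-09 to 0.64 in M1 and from 6.92e-09 to 0.782 in I1, with the threshold passed in 8 of 16 and 8 of 15 of them. The difference itself lay between −2.31 and −1.66 in M1 and between −2.27 and −1.92 in I1 over these alternatives, several of which change the test alone. In I1 the fits without either M1 array repeat the fit of the 4 I1 and BL185 arrays, so the passes are not all separate. The selected lines' values lie close to the array medians, so the size is not exact. In bulk RNA, fewer cells that express a gene and less RNA per cell cannot be told apart. The 6 macrophage and leukocyte markers, all measured, had a summed log2 level of 47.39 to 50.78 in M1, 48.70 to 49.55 in I1, and 52.22 to 52.44 in BL185. Of these markers 2, 2 and 3 averaged more than 1 log2 unit above the array median in M1, I1 and BL185. The lower sums came from Cd68, a lysosomal glycoprotein (7.51 and 7.37 in M1, 7.78 and 7.41 in I1, 10.74 and 10.56 in BL185), and from Cd53 (8.08 and 7.86 in M1, 8.35 and 7.99 in I1, 9.67 and 9.58 in BL185), while the other 4 were not lower in the selected lines by their means. Ptprc, which defines leukocytes, lay at 6.25 on each BL185 array, below the array medians. The part of these markers in the Npc1 result was not tested.

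Stard4, a soluble carrier that moves sterol between membranes and is a known SREBP target, read 11.36 and 12.31 in M1, 12.60 and 12.77 in I1, and 12.31 and 12.37 in BL185. The M1 arrays lay at or below the parent arrays (−0.51 ± 0.34; adjusted p = 0.450 by limma) and the I1 arrays above them (0.35 ± 0.34; adjusted p = 0.729).

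The efflux genes were dim and differed little between the lines. Abca1, which loads cholesterol and phospholipid onto lipid-poor apolipoprotein, read 8.03 and 7.72 in M1, 7.85 and 7.71 in I1, and 7.62 and 7.68 in BL185. Abcg1, which exports cholesterol to lipoprotein particles, read 9.31 and 8.98 in M1, 9.23 and 9.12 in I1, and 8.82 and 8.90 in BL185. Mylip, the ligase that marks lipoprotein receptors for breakdown, read 7.70 and 7.99 in M1, 7.79 and 7.72 in I1, and 7.68 and 7.88 in BL185. Abca1 and Mylip thus lay at the array medians in all 3 lines and cannot be told from background, and only Abcg1 stood clear of them. The differences were 0.23 ± 0.19 for Abca1, 0.29 ± 0.19 for Abcg1 and 0.07 ± 0.19 for Mylip in M1, and 0.13 ± 0.19, 0.32 ± 0.19 and −0.02 ± 0.19 in I1. For Abca1 and Abcg1 the arrays of each selected line lay above those of the parent, a separation that 26.2% of all genes showed in M1 and 42.6% in I1.

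The enzymes and the efflux genes were set side by side by their medians. The median difference from BL185 was 0.65 for the enzymes and 0.13 for the efflux genes in I1, a gap of 0.52. In M1 it was −0.30 for the enzymes and 0.23 for the efflux genes, a gap of −0.53 that became −0.03 without M1 replicate 1. By array the gap was −0.95 and −0.03 on the M1 arrays, 0.37 and 0.66 on the I1 arrays and 0.05 and −0.05 on the BL185 arrays, with a pooled between-replicate SD of 0.39. The efflux median is the value of Abca1, whose signal cannot be told from background, so the gap sets the enzymes against a probe set near background and its size is not exact.

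Other probe sets existed for 18 of the 27 members, 33 in all, and 23 of the 33 had the sign of the one used in M1 and 23 in I1. Idi1 had a further probe set with a difference of 1.07 in I1 and Mvk likewise 1.07, beside 0.89 and 0.86 for those used. Lss did not follow: a second probe set read 7.63 and 9.77 in M1, 9.95 and 10.05 in I1, and 11.43 and 11.33 in BL185, lower by 1.38 in I1 where the one used was higher by 0.92. The Lss value therefore depends on the probe set. All 3 other Ggps1 probe sets lay lower in I1 (−1.17 to −0.64), as did the one used. Hsd17b7 had a probe set at −0.75 in I1 and Sc5d one at −0.70, against 0.19 and 0.08 for those used. The other Fdft1 probe sets were higher in I1 by 0.64, 0.70 and 0.65, against 0.15 for the one used. In I1 the sign also differed on a further probe set of Fdps (0.75), Cyp51 (−0.32), Scap (0.18) and Insig2 (0.33 and 0.06). In M1 it differed on that second Lss probe set (−2.68, against 0.09 for the one used) and on probe sets of Fdft1 (0.83 and 0.77, against −0.39 for the one used), Fdps (0.40), Hsd17b7 (0.31), Scap (0.17), Idi1 (−0.03) and Hmgcs1 (−0.70 to −0.09). Npc1, Dhcr7, Ebp, Nsdhl, Tm7sf2, Pmvk, Sqle, Insig1 and Mylip had a single probe set each.

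A wider list of 50 genes of sterol handling had 41 measured members, of which 0 were called by limma in any of the 3 comparisons. At an unadjusted p under 0.05 it had 6 of 41 lower in M1, where 11.5% of all genes were lower, 5 of 41 lower in I1, where 7.47% were, and 0 otherwise. The fit of the 4 I1 and BL185 arrays called 7 of the 41 higher and 15 lower in I1, where it called 22.5% of all genes higher and 24.1% lower. Its median was −0.38 in M1 and −0.02 in I1. The lowest were Erlin1, a membrane protein that takes part in the sterol-driven breakdown of enzymes in the endoplasmic reticulum, and in M1 the lipid transfer protein Osbpl2, in I1 Stard5, a sterol carrier of the same fold as STARD4. Erlin1 read 10.47 and 11.93 in M1, 11.44 and 11.71 in I1, and 13.34 and 13.41 in BL185, a difference of −2.17 ± 0.48 in M1 and −1.80 ± 0.48 in I1 (adjusted p = 0.140 and 0.235 by limma). Osbpl2 differed by −1.72 ± 0.48 in M1. Stard5 read 8.82 and 9.28 in M1, 8.80 and 9.04 in I1, and 10.48 and 10.32 in BL185, a difference of −1.48 ± 0.23 in I1 (adjusted p = 0.0929). All arrays of the selected lines lay below the parent for Erlin1, Osbpl2 and Stard5, among others, as for Npc1. Of the 41 genes, 17 lay below in M1 and 18 in I1, as did 25.7% and 33.5% of all genes. In the signal range of the enzymes these shares were 44.9% and 53.5%. The highest were Gramd1a, which carries sterol from the plasma membrane (0.69 ± 0.28 in M1 and 0.69 ± 0.28 in I1), in M1 the oxysterol hydroxylase Cyp7b1 (0.56 ± 0.41) and in I1 the transporter Abca7 (0.87 ± 0.39). Cyp7b1 read 7.72 and 6.49 in M1 and 6.52 and 6.57 in BL185, all below the array medians, and differed by −0.05 without M1 replicate 1, so its place rests on 1 array at background. Gramd1a lay near the array medians (7.31 to 8.41). Between the selected lines the extremes were Mbtps2, a protease that releases SREBPs (1.07 ± 0.75, I1 minus M1), Abca7 (0.79 ± 0.39), Ubxn8 (−0.39 ± 0.31) and Gramd1c (−0.31 ± 0.23).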

How the data were processed

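The M1, I1 and BL185 lines were each profiled on 2 Affymetrix mouse arrays. The values deposited by the authors are log2 signals of probe sets, made with RMA and the affy package per the submitters' processing notes. The sources used here give no versions or settings, and the log2 scale was read from the range of the values. Of 45101 probe sets, 34945 named 1 gene, 932 several and 64 were controls. Probe sets of 1 gene were looked up in RefSeq through Entrez identifiers (34741 found) and reduced to the brightest per gene, which left 18193 genes.

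All 6 arrays entered 1 linear model with the line as its factor (limma 3.58.1, R 4.3.3; 3 residual and 2.27 prior degrees of freedom), and eBayes tested the 3 differences between lines: M1 and I1 each minus BL185, and I1 minus M1. A call is a Benjamini-Hochberg adjusted p under 0.05 over all genes. All members are named, and from the wider list the 2 largest differences per direction and comparison. The members and lists were chosen with earlier results of these data known. Whether replicate arrays stand for separate cultures is not in the labels, so p-values measure only the spread between arrays, which may be technical, and the number of arrays limits precision. Promoter letters came from RefSeq windows of GRCm38.p6. Figures were drawn with matplotlib 3.10.9. The alternatives were the lines' own arrays, each array left out, a replicate block, a crossed block, 3 scalings, averaging all probe sets of a gene, a minimum mean log2 of 8, trended robust eBayes, array weights and a change of at least 1. The crossed block and the comparison with genes of like signal were added after seeing the data.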

Additional observations from a re-analysis of the deposited data

Results flagged for a closer look

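In 2 of the 27 members both M1 arrays lay below both BL185 arrays and both I1 arrays above them. Over all genes, 25.7% lay below in M1 and 42.6% above in I1. In the signal range of the enzymes these shares were 44.9% and 27.7%. The share of genes with both was not counted. Fdft1 read 11.72 and 12.22 in M1, 12.47 and 12.54 in I1, and 12.42 and 12.30 in BL185, and the selected lines differed by 0.54 ± 0.23 (I1 minus M1, limma adjusted p = 1.00). Stard4 differed by 0.85 ± 0.34 (I1 minus M1, limma adjusted p = 1.00), with M1 replicate 2 and BL185 replicate 1 both at 12.31 to the second decimal. Neither difference passed the test, and 2 other probe sets of Fdft1 were higher in M1 than in BL185 (0.83 and 0.77).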

How the results depend on the processing

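The count of members called differed between the alternatives. With all 6 arrays it was 0 in each comparison. With only the arrays of the lines compared it was 15 in I1 minus BL185, where 8481 of 18193 genes were called, and 0 in the other comparisons. Array weights gave 15 in I1 and 1 in M1, where 8551 and 312 of all 18193 genes were called. Cyclic loess gave 9 in I1 and 3 in M1, where 1544 and 1831 genes were called. Quantile normalization gave 9 in I1 and 2 in M1, where 981 and 1176 genes were called. Averaging all probe sets of a gene and a minimum mean log2 of 8 gave 1 each in I1 and in M1, and that member was Npc1. Over all genes, averaging called 112 in I1 and 338 in M1. The minimum called 95 in I1 and 206 in M1, of 12029 genes. Leaving out each array in turn gave 0 to 15 in I1 minus BL185, 0 to 19 in M1 minus BL185 and 0 to 23 in I1 minus M1. The nonzero counts came only where an M1 array was left out, in fits whose shares of all genes are given above. For I1 minus BL185, leaving out either M1 array repeats the fit of the 4 I1 and BL185 arrays. A lone M1 array adds no spread, so these are the same result and not separate ones. The gap between enzymes and efflux genes ranged over the arrays left out from 0.37 to 0.66 in I1, from −0.95 to −0.03 in M1 and from 0.25 to 1.33 in I1 minus M1. In M1 it was 0.11 after cyclic loess and 0.03 after quantile normalization. Idi1 in M1 (0.07) was called higher without M1 replicate 1 (0.55) and lower without M1 replicate 2 (−0.42). The minimum of 8 leaves out Abca1 and Mylip, so the gap was not computed there. A required change of at least 1, median centring and trended robust eBayes called 0 members. Direction was kept under every alternative by 15 members in M1, 17 in I1 and 19 in I1 minus M1. Many of the alternatives leave the difference as it was and so could not change a direction. The 3 scalings changed the direction of 8 members in M1, 4 in I1 and 4 in I1 minus M1. The cause of these shifts was not tested.

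With the replicate number as a block, 0 members were called in each comparison, while the count over all genes went to 38 in M1 and 1 in I1. Deviations of same-numbered arrays correlated at 0.369 between M1 and I1, −0.131 between M1 and BL185 and 0.161 between I1 and BL185. Whether same-numbered arrays were processed together is not in the labels and was not tested. A block with crossed numbers for M1 and BL185 called 937 genes and 1 member.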
